A study of Mus musculus with 12 samples.

Results

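The plasminogen activator system was followed through 5 genes, Plau, Plaur, Plat, Serpine2 and Serpinb2, taken from the raw count matrix by gene symbol. All 5 were among its 55573 genes, and all 5 were among the 13836 genes with enough counts to be tested. RNA was sequenced from tumourspheres, floating spheres grown without serum in medium with EGF, bFGF, heparin and insulin, of 3 mouse mammary tumour cell lines, A1005, A1129 and A1471. The lines came from separate spindloid (spindle-cell) tumours and share the genotype MMTV-Metmt;Trp53fl/+;Cre. In it the mammary tumour virus promoter drives a mutant Met receptor, 1 Trp53 allele is floxed and Cre is present. The promoter of Cre is not given in the sources used here. For this model the paper also reports amplification of the endogenous Met locus. Each line was treated for 24 h with DMSO (the vehicle), with the Met inhibitor Crizotinib at 1 µM, with the FGFR inhibitor PD173074 at 1 µM, or with both (Combo), which gave 12 libraries, 1 per line and treatment. A treatment group was therefore 3 tumour lines, and the spread within a group included the differences between lines.

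Plasmin dissolves fibrin and other matrix proteins and is cut from plasminogen by either of a pair of serine proteases. Plau encodes urokinase (uPA), which works at the cell surface on its receptor uPAR, encoded by Plaur, and Plat encodes tissue-type plasminogen activator (tPA), which works mainly on fibrin and in brain tissue. Serpine2 (protease nexin 1) and Serpinb2 (plasminogen activator inhibitor 2) encode serpins that inhibit these proteases. Urokinase and its receptor are known for their part in tumour cell invasion, are induced by growth factors through the ERK pathway, and urokinase can cut the precursor of HGF, the ligand of Met.

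Depth was 13031492 to 17750476 counts per library, and no library stood apart by its total. The spindloid markers Vim, Zeb1, Zeb2, Twist1, Fn1 and Sparc each had at least 303 counts in every library, whereas Cdh2, the seventh of that list, had at most 6. The summed level of 8 epithelial markers was 7.31 to 86.5 CPM (counts scaled to the library size), with Cldn7 at 0 and Cdh1 at no more than 9 counts, but with Krt18 at 53 to 748 and Krt8 at 17 to 611 counts and Krt19 at up to 626. Of 7 leukocyte markers, Lyz2 was at 0, Adgre1, Csf1r, Itgam and Cd3e reached at most 5 counts, Ptprc reached 339, and Cd68 had 62 to 439 counts and so was present in every library. Their summed level was 4.47 to 31.4 CPM with DMSO and 8.29 to 42.0 CPM with Combo, and that of 5 endothelial markers was 0.345 to 0.858 CPM and 1.13 to 3.09 CPM. The 2 leukocyte markers with enough counts to be tested were both higher in A1005 than in A1129 and in A1471 (edgeR, adjusted p under 0.05). Their median differences were 4.72 and 4.85 on the log2 scale, with treatment as a covariate. Whether cells of any of these other types were present, and their part in the results or in differences between lines, was not tested. In bulk RNA, fewer cells of a type and less RNA per cell cannot be told apart.

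On mm10, Plau (ENSMUSG00000021822) lies at chr14:20836660-20843385 and Plat (ENSMUSG00000031538) at chr8:22757727-22782844, both on the plus strand. Plaur (ENSMUSG00000046223) lies at chr7:24462484-24475968 on the plus strand. Serpine2 (ENSMUSG00000026249) lies at chr1:79794197-79861180 on the minus strand, and Serpinb2 (ENSMUSG00000062345) at chr1:107511423-107535478 on the plus strand. Counts here are over exons, and only Serpinb2 shares exon bases with another gene, 291 bases with Serpinb10 on the same strand, which had 0 counts in every library.

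The sequence before a RefSeq start is shown for 3 of the 5 genes, those matched in the promoter table used, so the set was not chosen by how the genes moved. The sequences are RefSeq's for build GRCm38.p6, the gene's own strand, 5′ to 3′. Capitals mark matches, on either strand, to the AP-1 motif TGANTCA or the ETS motif CNGGAAG, motifs of factor families that ERK signalling is known to act through. The Plaur run is chr7:24462233-24462482 (plus strand), the Serpinb2 run is chr1:107511173-107511422 (plus strand) and the Serpine2 run is chr1:79858697-79858915 (minus strand), the part of its window outside annotated exons. The start used for Serpine2, position 79858665, lies inside the annotated span of the gene and is not its outermost start.
Plaur: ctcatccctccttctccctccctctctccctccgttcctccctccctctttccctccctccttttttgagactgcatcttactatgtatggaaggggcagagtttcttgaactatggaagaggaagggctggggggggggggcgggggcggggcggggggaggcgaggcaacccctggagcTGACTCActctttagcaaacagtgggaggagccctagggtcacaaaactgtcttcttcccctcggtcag
Serpinb2: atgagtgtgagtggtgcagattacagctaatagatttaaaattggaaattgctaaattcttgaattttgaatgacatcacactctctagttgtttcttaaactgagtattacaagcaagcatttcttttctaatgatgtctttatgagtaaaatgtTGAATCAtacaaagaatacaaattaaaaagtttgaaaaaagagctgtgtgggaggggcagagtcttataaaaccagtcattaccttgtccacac
Serpine2: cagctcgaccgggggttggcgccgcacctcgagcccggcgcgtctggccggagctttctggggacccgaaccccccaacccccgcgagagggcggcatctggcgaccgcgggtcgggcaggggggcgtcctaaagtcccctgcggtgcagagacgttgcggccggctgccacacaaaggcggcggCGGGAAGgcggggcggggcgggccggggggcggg

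Within 250 bases of the start, Plaur held 1 AP-1 match, TGACTCA, 69 to 63 bases upstream, and Serpinb2 held 1, TGAATCA, 94 to 88 bases upstream. Of all 32851 mouse promoter windows of that length, 6.75% held an AP-1 match. Serpine2 held no AP-1 match and 2 ETS matches, CGGGAAG 65 to 59 bases upstream and CAGGAAG 26 to 20 bases upstream, the latter past the end of the run shown. An ETS match was in 26.6% of windows. GC boxes (GGGCGG, in 32.7% of windows) stood 3 times in Plaur and 6 times in Serpine2, in part overlapping each other. Serpinb2 alone of the 3 held TATAAA, 29 to 24 bases upstream, letters found in 12.4% of windows. No match to the FoxO motif GTAAACA, found in 3.17% of windows, was present in the 3. A match is a string of letters and not a measured binding site.

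Per kilobase of the principal transcript, which sets genes of different length on 1 scale, Serpine2 was the most abundant member in DMSO-treated spheres at 128.9 ± 56.5 CPM per kb (SD, n = 3). Plaur followed at 60.4 ± 21.1 CPM per kb, Plau at 50.5 ± 43.1 and Plat at 28.3 ± 21.4. Serpinb2 was the least abundant at 3.77 ± 3.85 CPM per kb. The 3 Serpinb2 libraries lay below all 3 of Plat, and the ranges of the other neighbours in this order overlapped. The order depended on the length used: over all annotated exons Serpine2 has 8287 bases in place of 2210, and Plau (49.96 CPM per kb) then stood above Plaur (34.8) and Serpine2 (34.4).

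**Figure D1:**
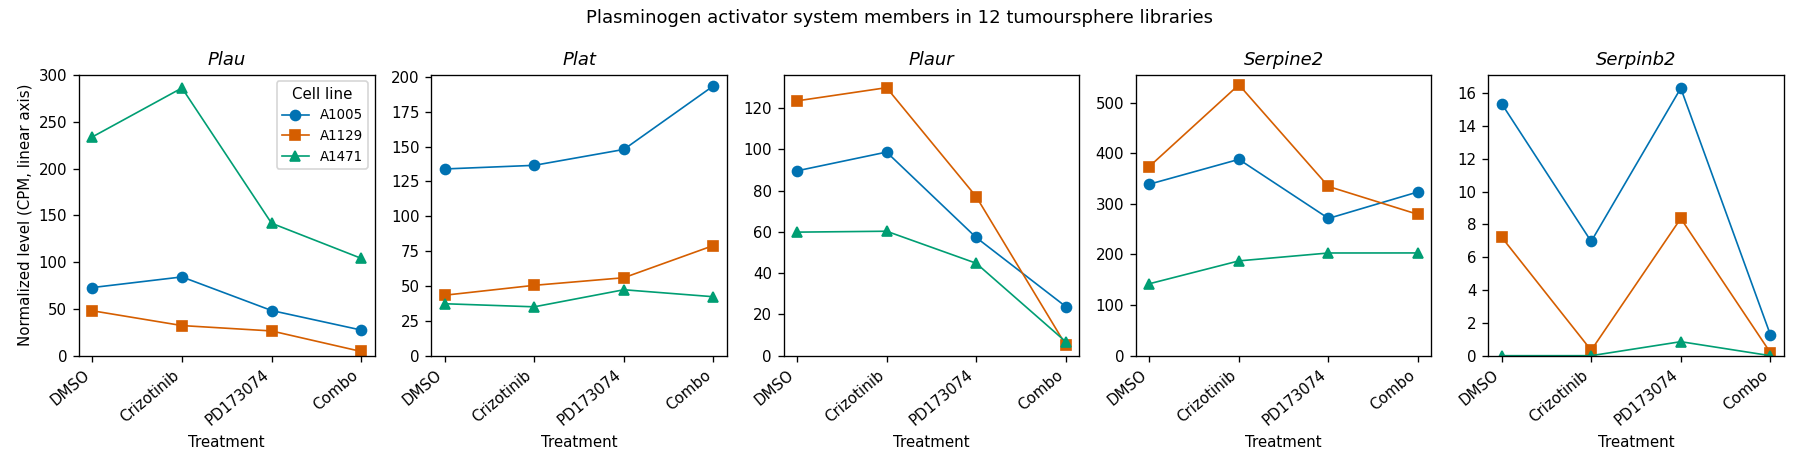
Level of each member in CPM (linear vertical axis, its own scale for each gene) by treatment (horizontal axis), with 1 point per library and the 4 libraries of a cell line joined. With Combo, Plaur lay at 23.8, 5.20 and 6.78 CPM in A1005, A1129 and A1471, below every other library, while Plat was higher than with DMSO in each line and Serpine2 was not shifted in 1 direction.

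Combo against DMSO asked what blocking both receptors at once did to these genes. The urokinase receptor and urokinase itself were lower in all 3 lines, the inhibitor Serpinb2 was lower in both lines that expressed it, the other activator Plat was somewhat higher in all 3, and Serpine2 was lower in A1129 and higher in A1471. A change of 1 sign in all 3 lines was seen in 65.8% of all genes tested, so such agreement was common. Without regard to the cell line, edgeR's quasi-likelihood test called 1 of the 5 members, Plaur, beside 14.4% of all genes tested. In that fit 8.28% of genes were lower and 6.1% higher. When the line was added as a block, so that each line is compared with itself, it called 4 of 5, where 54.8% of all genes were called, 26.2% lower and 28.6% higher. The members were Plaur, Plau and Serpinb2 lower and Plat higher.

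Plaur was at 89.6, 123.5 and 59.9 CPM with DMSO in A1005, A1129 and A1471. With Combo it was at 23.8, 5.20 and 6.78 CPM in the same order. The groups did not overlap, as was so for 29.9% of all genes tested, and the highest Combo library was the line A1005. A1005 fell 3.76-fold (95% counting interval 3.37 to 4.21), A1129 fell 23.8-fold (19.1 to 30) and A1471 fell 8.83-fold (7.10 to 11.1). The log2 fold change was -2.93 ± 0.58 (SE, adjusted p = 0.0101) unpaired and -2.97 ± 0.43 (adjusted p = 0.000289) with the line as a block. By its mean change within lines, -3.19 on the log2 scale, 40 of the 13836 genes fell further. The unpaired call was lost without A1129 (log2 fold change -2.29, adjusted p = 0.13) and without A1471 (-2.86, adjusted p = 0.125), and when the fit held the 6 compared libraries alone (-2.92, adjusted p = 0.0579). With the line as a block Plaur was called with any 1 line left out.

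Plau was at 72.8, 48.0 and 233.9 CPM with DMSO. With Combo it was at 27.4, 4.51 and 104.1 CPM. The groups overlapped, because A1471 with Combo remained above A1005 and A1129 with DMSO, yet each line lay below its own control. Urokinase transcripts were 2.66-fold lower in A1005, 10.7-fold lower in A1129 and 2.25-fold lower in A1471. The unpaired estimate was -1.39 ± 1.14 (adjusted p = 0.48), and with the line as a block it was -1.82 ± 0.33 (adjusted p = 0.00116). Without A1129, the line with the largest fall, the blocked value was -1.27 (adjusted p = 0.000896).

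Serpinb2 was at 15.4, 7.23 and 0 CPM with DMSO, which is 197, 110 and 0 counts. With Combo it had 23, 3 and 0 counts (1.28, 0.188 and 0 CPM). It was low throughout, and A1471 lacked counts in both groups, so that a change there could not be measured. The level was 12-fold lower in A1005 (counting interval 7.79 to 19.4) and 38.5-fold lower in A1129 (12.8 to 189.5). The unpaired estimate was -3.90 ± 2.28 (adjusted p = 0.298), and with the line as a block -4.04 ± 0.81 (adjusted p = 0.00196). Left out, A1471 changed the blocked value little (-4.14, adjusted p = 0.00949).

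Plat was at 133.9, 43.4 and 37.3 CPM with DMSO. With Combo it was at 193.5, 79.0 and 42.3 CPM. The groups overlapped, and every line was above its own control, A1471 by the least. The rise was 1.45-fold, 1.82-fold and 1.14-fold in A1005, A1129 and A1471. The unpaired estimate was 0.55 ± 0.76 (adjusted p = 0.697), and with the line as a block 0.54 ± 0.13 (adjusted p = 0.00525). That call was lost without A1129 (0.38, adjusted p = 0.0599).

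Serpine2 was at 338.8, 373.7 and 142.1 CPM with DMSO. With Combo it was at 323.6, 279.1 and 203.0 CPM. A1471 had the lowest level in both groups and was the line above its own control, whereas A1129 lay below its control by the most. Taken line by line, these are log2 changes of -0.07, -0.42 and 0.51. Neither fit called it, with -0.08 ± 0.43 (adjusted p = 0.931) unpaired and 0.01 ± 0.19 (adjusted p = 0.958) with the line as a block.

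**Figure D2:**
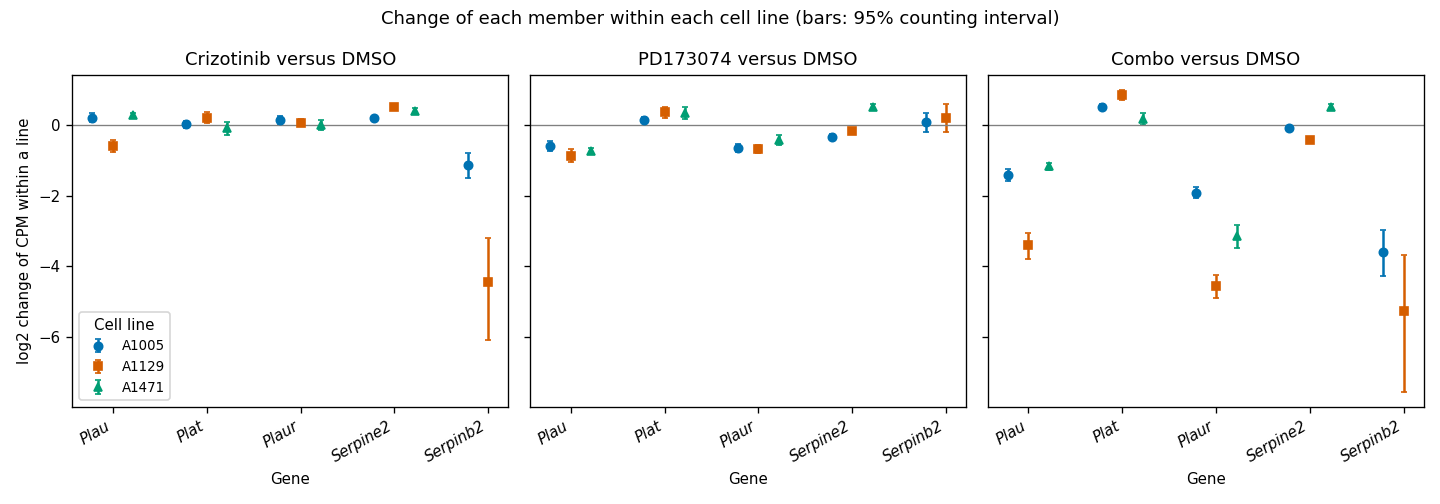
Log2 change of CPM against DMSO within each cell line (vertical axis) for each gene (horizontal axis), in a panel for each treatment, with 95% counting intervals as bars. Points of Plau and Plaur are below 0 in all 3 lines with PD173074 and lie lower still with Combo, and Serpinb2 in A1471, which had 0 counts with DMSO, has no point.

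**Figure D3:**
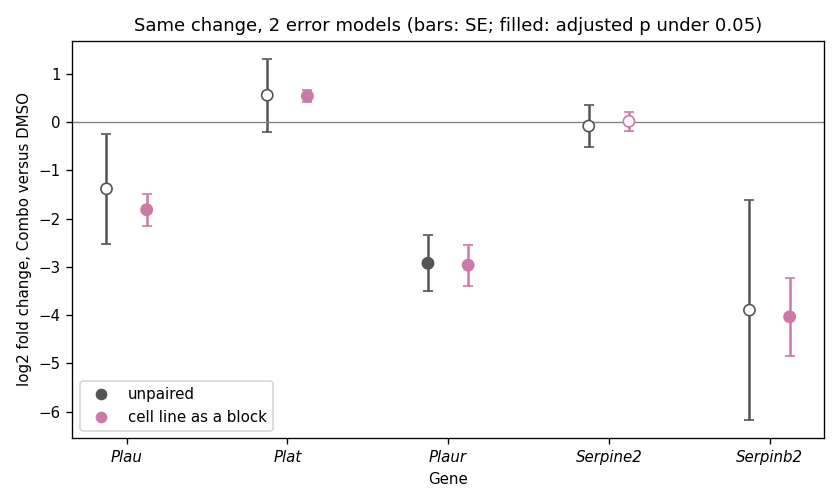
Log2 fold change of each member, Combo against DMSO (vertical axis), from the unpaired fit and from the fit blocked by line, with SE as bars and filled points where the adjusted p was under 0.05. The estimates of a gene differ most for Plau (-1.39 and -1.82) and little for Plaur (-2.93 and -2.97), while the bars are shorter with the block, and 1 point is filled in the unpaired fit against 4 with the block.

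Crizotinib alone against DMSO asked what blocking Met by itself did. No member was called in either fit by edgeR, where the calls were 0% of all genes unpaired and 0% with the block. At an unadjusted p under 0.05 there were 18 genes unpaired and 257 with the block, and DESeq2 called 1 gene and limma-voom 0. Plaur was at 98.7, 129.9 and 60.3 CPM with Crizotinib, close to its controls, with log2 changes of 0.14, 0.07 and 0.01. Plau was at 84.2, 32.2 and 286.2 CPM, above DMSO in A1005 and A1471 and below it in A1129. Serpinb2 had 102, 5 and 0 counts (6.96, 0.33 and 0 CPM). It was lower in both lines that expressed it, by -1.14 on the log2 scale in A1005 (counting interval -1.50 to -0.79) and by -4.46 in A1129 (-6.11 to -3.19), and its blocked estimate was -1.99 ± 0.68 (unadjusted p = 0.0145, adjusted p = 1). Serpine2 was at 387.9, 535.3 and 187.3 CPM and was above its control in each line, by 0.20, 0.52 and 0.40 on the log2 scale, with a blocked estimate of 0.37 ± 0.19 (adjusted p = 1). Plat was at 136.5, 50.5 and 35.0 CPM and did not move in 1 direction. A change of 1 sign in all 3 lines, as for Serpine2, was seen in 35.6% of all genes tested.

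PD173074 alone against DMSO asked the same of FGFR. No member was called in either fit, where 0% of genes were called unpaired (307 at an unadjusted p under 0.05, 27 called by DESeq2 and 0 by limma-voom) and 2.14% with the line as a block. Urokinase and its receptor were below their control in every line, where 47.3% of all genes tested changed with 1 sign in all 3 lines. Plau was at 48.3, 26.5 and 141.6 CPM, a log2 change of -0.59, -0.86 and -0.72, and the blocked estimate was -0.75 ± 0.32 (unadjusted p = 0.0409, adjusted p = 0.293). Plaur was at 57.3, 77.1 and 44.8 CPM, a log2 change of -0.65, -0.68 and -0.42, with a blocked estimate of -0.58 ± 0.38 (adjusted p = 0.506). The 2 genes thus had values of 1 sign that did not pass the test. By mean change within lines, 365 of the 13836 genes fell further than Plau and 578 further than Plaur. Plat was at 147.9, 55.9 and 47.3 CPM, above its control in all 3 lines by 0.14, 0.37 and 0.34 on the log2 scale (blocked estimate 0.28 ± 0.13, adjusted p = 0.32). Serpine2 was at 271.2, 334.3 and 202.9 CPM, lower in A1005 and A1129 and higher in A1471. Serpinb2 had 270, 117 and 12 counts (16.3, 8.36 and 0.853 CPM). Its 12 counts in A1471 are the only ones in that line, and their level is 4.12-fold that of the 3 counts that a count of 0 allows with DMSO. With the counting error of the 12 included, the lower limit of the change was 1.52 on the log2 scale. Serpinb2 levels in A1005 and A1129 differed from DMSO by less than the counting interval.

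Combo was then set against each inhibitor alone, comparisons that share the Combo libraries with each other and with the one above. Against Crizotinib, Plaur alone was called unpaired (-3.01 ± 0.59, adjusted p = 0.00947), beside 13.2% of all genes, but not without A1129 (-2.37, adjusted p = 0.12), without A1471 (-2.96, adjusted p = 0.125) or with the compared libraries alone (adjusted p = 0.058). With the line as a block Plaur (-3.04 ± 0.43, adjusted p = 0.000254) and Plau (-1.77 ± 0.33, adjusted p = 0.00127) fell and Plat rose (0.49 ± 0.13, adjusted p = 0.00889), so that 3 of 5 members were called beside 53.4% of all genes. The Plat call was lost without A1005 (0.49, adjusted p = 0.0542). Serpinb2 missed the threshold (-2.05 ± 0.85, adjusted p = 0.0632). In A1129 it had 5 counts with Crizotinib and 3 with Combo, a log2 change of -0.81 with a counting interval of -3.50 to 1.55. Serpine2 changed by -0.26, -0.94 and 0.12 on the log2 scale in A1005, A1129 and A1471. It was not called with the block (-0.36 ± 0.19, adjusted p = 0.14), but was so without A1471 (-0.58, adjusted p = 0.0351).

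Against PD173074, Plaur alone was called unpaired (-2.32 ± 0.57, adjusted p = 0.0488), beside 4.77% of all genes. That call was lost with library totals in place of TMM (adjusted p = 0.0549), without a filter on low counts (adjusted p = 0.0503), with the compared libraries alone (adjusted p = 0.173), without A1129 (-1.75, adjusted p = 0.428) and without A1471 (-2.21, adjusted p = 0.297). With the line as a block Plaur (-2.38 ± 0.42, adjusted p = 0.002), Plau (-1.07 ± 0.33, adjusted p = 0.026) and Serpinb2 (-4.52 ± 0.82, adjusted p = 0.0022) fell, 3 of 5 members beside 39.8% of all genes. The Plau call was lost without A1005 (-1.20, adjusted p = 0.0773), and its value was -0.62 without A1129 (adjusted p = 0.0227). Plat was called only without A1471 (0.44, adjusted p = 0.0476). Serpine2 was at nearly the same level in both groups (0.01 ± 0.19, adjusted p = 0.985).

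Whether Combo differed from the sum of the changes under the 2 single inhibitors was tested on the log2 scale. Plaur lay below that sum, by -2.40 ± 0.78 on the log2 scale unpaired (unadjusted p = 0.0116, adjusted p = 0.304, with 0.918% of all genes called), where 0 of 5 members passed by edgeR, DESeq2 and limma-voom alike and 1 was under an unadjusted p of 0.05 in each. With the line as a block it was -2.46 ± 0.56 (adjusted p = 0.0188, with 16.2% of all genes called). It was the only member called, and not without A1129 (-1.95, adjusted p = 0.0601) or without A1471 (-2.34, adjusted p = 0.175). Plau and Serpinb2 had values of the same sign with the block, -1.03 ± 0.45 (adjusted p = 0.144) and -2.53 ± 1.04 (adjusted p = 0.122).

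The balance between members was read from ratios within each library. Among the activator transcripts, Plat plus Plau per kilobase of principal transcript, Plat made up 63.0, 45.6 and 12.9% with DMSO in A1005, A1129 and A1471. With Combo its share was 86.7, 94.2 and 27.4%. With PD173074 it was 74.0, 66.2 and 23.7%, and with Crizotinib 60.1, 59.3 and 10.2%. The share was higher with Combo than with DMSO in each line, but the groups overlapped, since A1471 with Combo stayed below A1005 and A1129 with DMSO. Over all annotated exons, where Plat is longer, its share was 41.1, 25.5 and 5.70% with DMSO and 72.8, 86.9 and 13.4% with Combo. The log2 ratio of Plau to Serpine2 was -2.30, -3.04 and 0.64 with DMSO and -3.64, -6.04 and -1.05 with Combo. It was lower with Combo in each line. Which gene stood higher depended on the length used, since over all exons the ratio in A1471 was 2.53 with DMSO and stayed above 0 with Combo, at 0.84. With both activators set over both member inhibitors (Plau plus Plat over Serpine2 plus Serpinb2, principal transcripts), the log2 ratio was -0.94, -2.20 and 0.83 with DMSO and -0.74, -1.93 and -0.59 with Combo, higher with Combo in A1005 and A1129 and lower in A1471. Over all exons it was 0.14, -0.82 and 2.61 with DMSO and 0.10, -1.21 and 1.05 with Combo, lower in each line, so the direction in A1005 and A1129 turned with the length used.

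**Figure D4:**
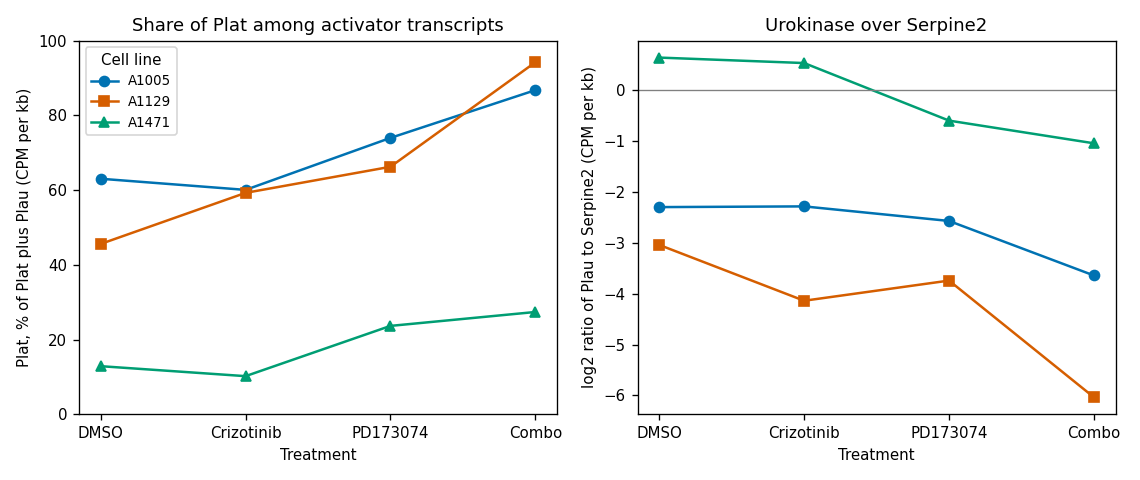
Left, Plat as a percentage of Plat plus Plau (CPM per kb of principal transcript), and right, log2 ratio of Plau to Serpine2 on the same scale, by treatment (horizontal axis), 1 point per library and 1 line per cell line. With Combo, A1005 reached a Plat share of 86.7%, A1129 one of 94.2% and A1471 one of 27.4%, and the ratio of Plau to Serpine2 was lower with Combo than with DMSO in all 3 lines. Its sign in A1471 with Combo turns from -1.05 to 0.84 with all-exon lengths.

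The 3 lines differed from each other in these genes in a fit with treatment as a covariate, in which the 4 libraries of a line are 1 line under 4 treatments and not 4 cultures of separate origin. Plau was highest in A1471, then A1005, then A1129. It was 1.75 log2 units lower in A1005 than in A1471 (-1.75 ± 0.28, adjusted p = 0.000382) and higher in A1005 than in A1129 (1.22 ± 0.29, adjusted p = 0.00398). Plat had another order, with A1005 above A1129 (1.43 ± 0.11, adjusted p = 2.28e-06) and A1129 above A1471 (0.47 ± 0.11, adjusted p = 0.00642). Serpine2 was lower in A1471 than in A1005 (0.83 ± 0.17, adjusted p = 0.00166) and A1129 (1.02 ± 0.17, adjusted p = 0.000794). Serpinb2 was highest in A1005, 1.80 ± 0.53 log2 units above A1129 (adjusted p = 0.0143) and 5.87 ± 0.78 above A1471 (adjusted p = 0.000112). In A1471 it had 12 counts with PD173074 and 0 with every other treatment, so the size of the latter difference rests on few counts. Plaur was higher in A1005 than in A1471 (0.89 ± 0.35, adjusted p = 0.047), with 0.79 ± 0.34 for A1129 over A1471 (adjusted p = 0.0805) and 0.10 ± 0.34 for A1005 over A1129 (adjusted p = 0.818), neither called. Without the Combo libraries all 3 were called, at 0.55 (adjusted p = 0.000226), 0.98 (adjusted p = 1.66e-05) and -0.43 (adjusted p = 0.000924), so that A1005 was then below A1129. In all, 3 of 5 members were called between A1005 and A1129, where 57.8% of all genes were, 5 of 5 between A1005 and A1471 (57.7%) and 4 of 5 between A1129 and A1471 (45.9%).

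Of 31 other genes of the plasminogen system (inhibitors, plasminogen and its receptors, clearance receptors, integrins and related proteases), 21 could be tested. Plg, plasminogen itself, had at most 2 counts in any library, and Vtn, Hrg, F12, Klkb1, Hpn, Hgfac, Cpb2, Serpina5 and Serpinf2 were also too low to test. Unpaired, edgeR called 0 of 21 with Combo against DMSO (14.4% of all genes), 4 were under an unadjusted p of 0.05, limma-voom called 0 and DESeq2 called 1, Plgrkt. With the line as a block 6 were higher and 6 lower, where 28.6% of all genes were higher and 26.2% lower, so the list was called about as often as genes at large, and the median over the 21 was -0.14 on the log2 scale against 0.03 over all genes. The corresponding counts were 5 higher and 6 lower against Crizotinib (53.4% of all genes called), and 4 and 3 against PD173074 (39.8%). In single treatments 0 of 21 were called in either fit, with 5 under an unadjusted p of 0.05 for PD173074 with the block and 0 for Crizotinib, and DESeq2 and limma-voom called 0.

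Among those higher with the block were Serpinb8, an intracellular serpin (2.57 ± 0.35, adjusted p = 0.000206), and Sorl1, a sorting receptor that binds the receptor of urokinase (2.09 ± 0.29, adjusted p = 0.000234). With DMSO, Serpinb8 was at 1.72 CPM in A1005 but at only 0.131 and 0.069 CPM in A1129 and A1471. Sorl1 in A1005 was at 0 CPM with DMSO and 0.111 CPM with Combo, so its rise rested on A1129 and A1471. Serping1, the inhibitor of complement C1 (2.60 ± 0.85, adjusted p = 0.0249), rested on A1005, where it went from 1.33 to 14.2 CPM, and was at 0.0754 CPM or less with Combo in the other two lines. St14, the membrane protease matriptase (2.0 ± 0.56, adjusted p = 0.0116), never exceeded 28 counts. Those lower were Itga5, the fibronectin receptor subunit (-1.03 ± 0.11, adjusted p = 5.93e-05), Mrc2, the collagen receptor that associates with uPAR (-0.92 ± 0.14, adjusted p = 0.0004), Eno1, a glycolytic enzyme that also binds plasminogen (-0.86 ± 0.11, adjusted p = 0.000151), and the serpin Serpinb6a (-0.60 ± 0.15, adjusted p = 0.00761).

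**Figure D5:**
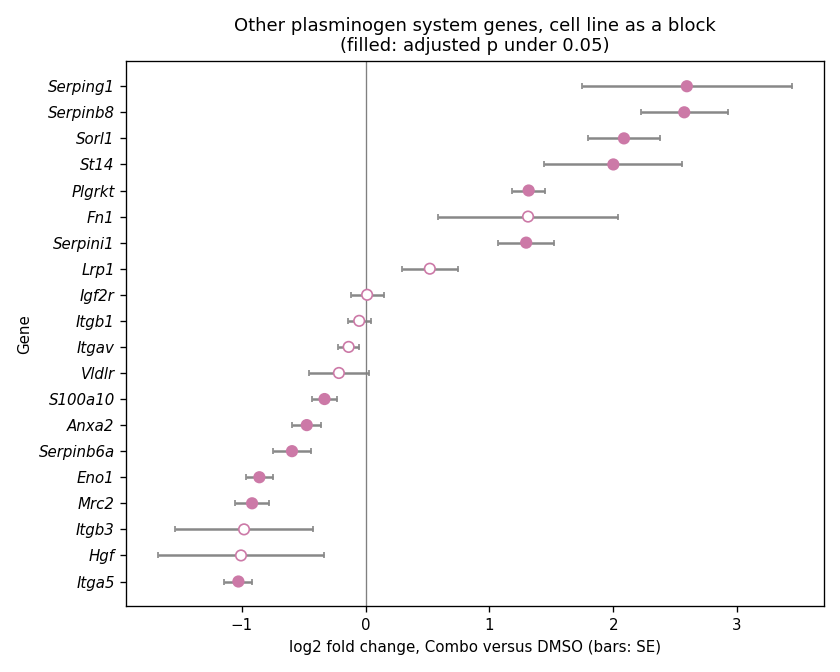
Log2 fold change with SE (horizontal axis), Combo against DMSO in the fit blocked by line, for 20 of the 21 other plasminogen system genes that could be tested (vertical axis), with filled points where the adjusted p was under 0.05. The 6 filled points to the right run from Serpini1 to Serping1 (1.30 to 2.60) and the 6 to the left from S100a10 to Itga5 (-0.33 to -1.03).

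Beside them, a list of 20 genes known to follow ERK activity, chosen with earlier results of these data known, was read by counts alone. With Combo against DMSO 16 of 20 were lower unpaired (8.28% of all genes) and 18 with the line as a block (26.2%), with 0 higher, and their unpaired median was -2.85 on the log2 scale. With PD173074 alone 0 were called unpaired (5 under an unadjusted p of 0.05, 1 called by DESeq2 and 0 by limma-voom) and 5 were lower with the block (0.52% of all genes), and with Crizotinib alone 0 in either fit or by DESeq2 or limma-voom, none being under an unadjusted p of 0.05.

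Similarity of pattern was measured by Pearson's r of log2 CPM, centred within each line, over the 12 libraries, which share the lines and in which many genes separate Combo from the rest. Plaur and Plau had r = 0.941 with each other, with 217 of the tested genes closer to Plau than Plaur was. Plat ran opposite to Plau (r = -0.945) and to Plaur (r = -0.81). Among the genes most like Plaur were Fbl (r = 0.994) and Mycbp (0.993), and those most like Plau were Clasrp (0.991), Snhg12 (0.99) and Nme2 (0.987). Plat was closest to Zfp644 (0.973), Sytl2 (0.968) and Gla (0.964). Serpine2 was nearest to Pfkfb3 (0.926), Pi16 (0.914) and the pseudogene Rpl36-ps2 (0.914), and Serpinb2 to Aggf1 (0.935), Il4ra (0.934) and Il33 (0.93). Sytl2, Pi16 and Rpl36-ps2 averaged only 0.179, 1.12 and 0.571 CPM with DMSO, and Serpinb2 was itself low, so the r values of these genes rest on few counts. Serpinb2 and Serpine2, both inhibitors, had r = -0.022.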

How the data were processed

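RNA-sequencing libraries of tumourspheres from 3 mouse cell lines under 4 treatments were grouped by treatment and line from the sample labels. The authors deposited raw counts (integers per Ensembl gene) made from NextSeq500 reads aligned with STAR to mm10. HTSeq and bcl2fastq are named in the submitters' processing notes, without versions. The use of strand is not given in the sources used here. Gene positions and lengths are from GENCODE vM21 on that build, with entries for 55480 of the 55573 genes.

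Members were found by symbol. Members, gene lists and the rule for genes named (all 5 members, up to 4 called genes of the plasminogen list in each direction, and the 3 genes most like each member, of which 1 and another gene of the rule are not reported here) were chosen with earlier results of these data known. In R 4.3.3, edgeR 4.0.16 fitted all 13836 genes that passed filterByExpr (minimum count 10, total 15) with TMM normalization and a quasi-likelihood test, treatment only over 12 libraries, as the study's methods state an unpaired analysis. P-values were adjusted by Benjamini-Hochberg and called under 0.05. Fold change errors are SE, taken from the test statistic. The cell line was added as a block because libraries of a line deviated together from their group means (18 pairs, mean r 0.871, lowest 0.766, against a mean of -0.422 over 36 pairs of different lines). Lines were compared with treatment as a covariate. CPM use TMM-scaled totals. Changes within a line carry exact binomial 95% intervals, and a count of 0 was bounded by 3 counts. Intervals cover counting error only, and bounds leave out the counting error of the other library. Per-kilobase values use the principal transcript or all exons. Tested genes held at least 99.8% of the counts, and no 2 of the 66 library pairs were identical (lowest chi-square per degree of freedom 4.54). Alternatives were DESeq2 1.42.0, limma-voom (limma 3.58.1), other normalizations, filters, a fold threshold and leaving out each line, and limma-voom and DESeq2's size factors with the block, chosen after seeing the data. The fits were tested on simulated data in which any Combo effect was the same in every line. Effects that differ between lines were not simulated. Nothing in the labels says that the libraries of a line came from separate cultures per treatment. Protein sequences, and the upstream sequences of Plau and Plat, were not used here.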

Additional observations from a re-analysis of the deposited data

Results flagged for a closer look

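Plau with Crizotinib was higher than with DMSO in A1471 (0.29 on the log2 scale, counting interval 0.22 to 0.36) and A1005 (0.21, 0.09 to 0.33) and lower in A1129 (-0.58, -0.75 to -0.41), a gap of 0.87 between A1471 and A1129. Serpine2 moved in opposite directions in A1471 and A1129 with Combo, a gap of 0.94, and in A1471 and A1005 with PD173074, a gap of 0.84. These gaps between lines were not tested, since each line has 1 library per treatment and the intervals cover counting error only.

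For Plaur, the change that a second inhibitor brought differed from the change without it, by -2.46 on the log2 scale with the line as a block (adjusted p = 0.0188, edgeR). It was not called unpaired (adjusted p = 0.304), nor with the block without A1129 (adjusted p = 0.0601) or without A1471 (adjusted p = 0.175). In each of the 3 lines Plaur was lower with Combo than with either inhibitor alone, and it did not fall with Crizotinib alone.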

How the results depend on the processing

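Each group holds 3 tumour lines with a single library per line and treatment, so effects cannot be tested within a line. Depth limits Serpinb2, with 0 to 270 counts. Of 498 member values under alternative settings in the 6 comparisons of treatments, 411 kept their direction and side of the threshold, 45 passed it anew, 11 no longer passed and 31 changed sign. Where a range with a line left out names no fit, it spans the unpaired and the blocked fits together.

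Members called with Combo against DMSO numbered 1 unpaired, 4 with the line as a block (also by limma-voom or DESeq2's size factors with the block) and 0 with the compared libraries alone. With a line left out they numbered 0 to 1 unpaired and 3 to 4 with the block. Against Crizotinib there was 1 unpaired, 3 with the block (3 and 3 in the same added fits), 0 with the compared libraries alone and 0 to 4 with a line left out. Against PD173074 there was 1, then 3 with the block (3 and 3), 0 with library totals, with no filter or with the compared libraries alone, and 0 to 4 with a line left out. For the departure from the sum it was 0, then 1 with the block (1 and 1), and 0 to 1 with a line left out. Between lines, requiring 1.5 log2 units of change in either direction left 1 member (A1005 against A1129), 3 (A1005 against A1471) and 2 (A1129 against A1471).

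With Combo against DMSO, Plau was -1.82 with the block, -1.72 by limma-voom and -1.79 by DESeq2's size factors with it, all called. With a line left out it was -2.24 to -1.27 with the block, called each time, and -1.91 to -1.20 unpaired, never called. Plat was 0.54, 0.54 and 0.56 in the same blocked fits of all lines, and 0.38 to 0.71 with a line left out. Serpinb2 was -4.04, -3.70 and -4.01 (-2.56 by limma-voom unpaired), and -5.07 to -3.42 with a line left out, and could not be tested where 10 counts were required in every library. Plaur was -2.92 and not called with the compared libraries alone, and -3.92 to -2.29 with a line left out.

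These values changed sign. Serpine2 with Combo against DMSO was 0.0137 with the block, 0.0093 by limma-voom, 0.0139 by limma-voom with the block, 0.0413 by DESeq2's size factors with the block, and -0.23 to 0.22 with a line left out. With PD173074 it was 0.0076, 0.0107, 0.0150 and 0.00083 in these fits and -0.22 to 0.17 with a line left out. With Combo against PD173074 it was 0.0061 with the block, 0.0186 by DESeq2, 0.0249 with its size factors, 0.0405 with these and the block, 0.0393 with library totals, 0.0371 with at least 10 counts in every library and -0.15 to 0.15 with a line left out. Plau with Crizotinib was -0.0443 with the block, -0.0291 by limma-voom, -0.0457 by DESeq2's size factors with the block and -0.22 to 0.27 with a line left out. Plat with Crizotinib was -0.0345 to 0.111 with a line left out. Plaur in A1005 against A1129 was -0.43 without the Combo libraries, where it was called (adjusted p = 0.000924). The cause was not tested.

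Genes called with Combo against DMSO numbered 1990 unpaired, 7578 with the block, 2948 by DESeq2, 1160 without a filter, 794 with the fold threshold and 594 with the compared libraries alone. With a line left out they numbered 120 to 2021 unpaired and 5153 to 6823 with the block.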
